A study of Mus musculus with 151 samples.

Results

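The 40 genes described here act in DNA repair and the DNA damage response. They were chosen by name, by repair pathway, from the 35949 gene names shared by the 7 count tables of the series, and all 40 were found in every table. The study asked whether conception by in vitro fertilization (IVF) alters the ovaries and oocytes of female mouse offspring as they age, and the comparisons below ask whether the transcripts of these repair genes differed between IVF and Natural females, between ages of the ovary, and between oocytes, their fetal precursors and the cumulus cells around them.

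All animals were F1 females of CF-1 dams and B6/SJL sires. Natural females were conceived by mating, whereas IVF females came from oocytes of superovulated CF-1 dams that were fertilized in vitro with B6/SJL sperm, cultured to the blastocyst stage under reduced oxygen and transferred to pseudopregnant CF-1 recipients. The IVF group therefore differs from the Natural group in superovulation, fertilization, culture and transfer together, and these cannot be told apart. Adult females of both groups had been delivered by c-section and fostered to CF-1 dams in litters of a standard size. Whole ovaries were sequenced at the fetal stage E18.5 (4 Natural, 6 IVF), 12 weeks (4 Natural, 5 IVF) and 39 weeks (5 Natural, 5 IVF, with 1 Natural library given as 40 weeks in one of its labels). Low-input libraries were made from 100 E13.5 primordial germ cells (PGCs; 4 Natural, 5 IVF), from single oocytes of superovulated 12-week (36 Natural, 40 IVF) and 39-week females (9 Natural, 10 IVF) and from 100 cumulus cells at 12 weeks (5 Natural, 5 IVF). For fetal collections the methods give in one place a later gestational day for IVF than for Natural pregnancies, so gestational age and conception may not be separable at E18.5. The single oocytes of 12 weeks were summed into 5 Natural and 5 IVF sets by the start of the library name, which was read as the donor female although the labels do not explain it. The labels name no donor for the 39-week oocytes, which were therefore treated as 1 sample a group with no test.

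A cell that carries a DNA double-strand break detects it through the MRE11-RAD50-NBN complex and the kinases ATM and ATR, which signal through the checkpoint kinases CHEK1 and CHEK2 and through the adaptor 53BP1 (Trp53bp1). The break is then repaired either by homologous recombination, which needs BRCA1, BRCA2, PALB2 and mediators such as XRCC2 and XRCC3 and copies an intact template, or by non-homologous end joining, in which the Ku proteins (Xrcc5, Xrcc6), DNA-PKcs (Prkdc) and ligase IV (Lig4) rejoin the ends. The Fanconi anemia proteins deal with crosslinks between strands, and the mismatch, base excision and nucleotide excision pathways with damage on 1 strand. In the female germ line meiotic recombination is carried out by the same machinery in the fetal ovary, and oocytes then wait in prophase arrest for months in the mouse, during which their DNA must be kept intact.

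The promoters of 6 members are shown because these genes had the largest differences between 12-week Natural oocytes and PGCs, Chek1, Trp53bp1 and Lig4 towards the oocyte and Parp1, Chek2 and Xrcc6 towards the PGC. Each sequence is the 250 bases before the RefSeq start of the gene in GRCm38.p6 (mm10), read 5′ to 3′ on the strand of the gene, and capitals mark every match, on either strand, to CCAAT, to the GC box GGGCGG, to the E2F-type sites TTTCCCGC, TTTGGCGC, TTTCGCGC and TTTGCCGC, to an NRF1-type palindrome (GCGCA followed by its reverse complement) and to the CRE TGACGTCA.
Chek1 (chr9:36726659-36726908, minus strand): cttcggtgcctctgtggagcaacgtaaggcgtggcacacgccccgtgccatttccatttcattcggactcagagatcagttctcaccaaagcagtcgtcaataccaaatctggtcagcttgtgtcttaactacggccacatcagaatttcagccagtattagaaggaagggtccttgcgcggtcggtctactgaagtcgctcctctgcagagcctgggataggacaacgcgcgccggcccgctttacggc
Trp53bp1 (chr2:121271408-121271657, minus strand): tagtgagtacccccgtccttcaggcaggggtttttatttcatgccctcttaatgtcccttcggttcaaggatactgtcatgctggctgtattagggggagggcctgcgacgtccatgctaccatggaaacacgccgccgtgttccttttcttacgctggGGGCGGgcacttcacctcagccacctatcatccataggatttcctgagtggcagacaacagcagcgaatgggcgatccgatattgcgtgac
Lig4 (chr8:9977681-9977930, minus strand): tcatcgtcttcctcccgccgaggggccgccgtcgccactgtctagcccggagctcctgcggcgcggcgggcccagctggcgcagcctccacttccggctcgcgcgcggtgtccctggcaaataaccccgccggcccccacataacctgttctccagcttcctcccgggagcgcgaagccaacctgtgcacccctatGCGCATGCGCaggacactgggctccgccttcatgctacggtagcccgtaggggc
Parp1 (chr1:180568641-180568890, plus strand): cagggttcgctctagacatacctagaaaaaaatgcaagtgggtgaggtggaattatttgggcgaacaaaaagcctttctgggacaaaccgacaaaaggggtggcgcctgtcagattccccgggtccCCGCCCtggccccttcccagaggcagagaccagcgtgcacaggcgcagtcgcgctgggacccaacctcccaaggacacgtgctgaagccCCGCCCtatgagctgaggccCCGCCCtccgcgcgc
Chek2 (chr5:110839733-110839982, plus strand): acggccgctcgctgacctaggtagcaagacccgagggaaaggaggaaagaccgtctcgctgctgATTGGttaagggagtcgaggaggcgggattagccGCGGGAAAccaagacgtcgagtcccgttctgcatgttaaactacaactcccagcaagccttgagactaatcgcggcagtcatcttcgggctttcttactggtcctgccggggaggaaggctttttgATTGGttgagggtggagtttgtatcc
Xrcc6 (chr15:82016119-82016368, plus strand): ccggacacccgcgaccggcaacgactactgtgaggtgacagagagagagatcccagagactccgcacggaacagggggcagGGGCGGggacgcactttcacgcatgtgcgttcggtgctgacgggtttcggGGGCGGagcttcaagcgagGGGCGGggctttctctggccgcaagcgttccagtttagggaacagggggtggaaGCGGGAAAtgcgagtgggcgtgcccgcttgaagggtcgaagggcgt

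Of the 40 members, 31 had a promoter entry in RefSeq. A GC box was found in 22 of the 31 (71.0%) against 32.7% of all 32851 promoters, a CCAAT box in 18 (58.1%) against 33.8%, and an E2F-type site in 4 (12.9%) against 1.86%. The NRF1-type palindrome was present in 1 member, Lig4, and in 0.782% of all promoters, and the CRE in 2 members and 1.55% of all. The member promoters had a median GC content of 58.8% and 18 CpG dinucleotides, against 52.4% and 6 over all promoters. Chek1 held none of the 5 motifs in this window, Trp53bp1 held 1 GC box, Parp1 held 3, Xrcc6 held 3 with 1 E2F-type site, and Chek2 held 2 CCAAT boxes with 1 E2F-type site. These matches describe the letters only.

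Library totals ran from 2839022 to 43363799 counts in the ovaries, where every member had a count in every library, and from 839781 to 31126357 in the low-input libraries, where between 25 and 40 members did in each group. Levels are given as CPM, the counts of a gene relative to the library total, scaled between the libraries of a table by TMM factors, which correct for a few abundant genes taking up the reads. Where ages or cell types are compared, and for levels per kilobase, CPM come from 1 fit of several tables. On that scale, called the joint fit, a library has other values than within its own table. Differences are log2 fold changes with their standard error (SE) from edgeR's quasi-likelihood test on all genes of a table, and a gene is called where its Benjamini-Hochberg adjusted p is below 0.05. Ovary libraries were made from individual females of different litters. For the low-input libraries nothing states that libraries of 1 group came from separate females, so their p-values may measure technical spread only. In whole ovary a lower level may come from fewer cells of a type or from less RNA per cell, and these cannot be told apart. The labelled cell types carried their markers. The 10 oocyte markers summed to 15300 to 30700 CPM in the oocyte sets and to no more than 33.9 CPM in cumulus libraries. The 8 granulosa and cumulus markers summed to 1010 to 2540 CPM in cumulus libraries and 57.5 to 87.2 CPM in oocyte sets. In PGCs they summed to 13.5 to 26.4 CPM, with Amh, Foxl2 and Fshr at 0. The 6 fetal germ cell markers summed to 993 to 3930 CPM in PGCs but also to 1400 to 2440 CPM in oocyte sets, so they do not separate these cells. The 4 endothelial markers summed to 73.5 to 453 CPM in PGCs. The part of other cells in the PGC libraries was not tested. No interval or test here covers molecules amplified more than once, as the libraries carry no molecular identifiers.

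In the E18.5 ovary, Trp53bp1 was higher in IVF than in Natural females and was the only 1 of the 40 members called, in a table where 5.43% of the 16415 genes tested were called in either direction. Its product binds chromatin beside double-strand breaks and favours end joining. Trp53bp1 was at 90.0, 98.1, 109 and 78.3 CPM in the 4 Natural ovaries and at 126, 143, 140, 140, 124 and 132 CPM in the 6 IVF ovaries. Every IVF ovary lay above every Natural ovary, and the means were 94.0 ± 13.1 (SD, n = 4) and 134 ± 8.41 CPM (SD, n = 6). The groups did not overlap, in either direction, for 2 of the 40 members (Trp53bp1 and Atm) and for 1414 of the 16415 genes. The log2 fold change was 0.51 ± 0.11 (SE) with an adjusted p of 0.0196 by edgeR. The call was lost when Natural replicate 2 or Natural replicate 4 was left out, with log2 fold changes that stayed between 0.43 and 0.59.

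The apical damage kinases Atm, Atr and Prkdc had the next smallest p-values in the E18.5 ovary and did not pass with edgeR. Atm, the kinase that answers double-strand breaks, was at 65.4, 62.8, 59.2 and 43.6 CPM in Natural and at 80.8, 83.1, 65.6, 72.8, 87.4 and 75.3 CPM in IVF ovaries (log2 fold change 0.42 ± 0.13, adjusted p = 0.0711 by edgeR). The groups did not overlap, although the highest Natural and the lowest IVF ovary were almost level. Atr, which answers stalled replication forks, was at 90.1, 85.0, 49.4 and 66.1 CPM in Natural and at 106, 104, 94.9, 85.2, 111 and 112 CPM in IVF ovaries (0.49 ± 0.16, adjusted p = 0.080 by edgeR). Prkdc, the catalytic subunit of the end-joining kinase, was at 35.5, 31.1, 30.1 and 30.1 CPM in Natural and at 48.4, 40.4, 33.4, 43.8, 47.7 and 44.5 CPM in IVF ovaries (0.44 ± 0.12, adjusted p = 0.0575 by edgeR). For Atr and Prkdc the groups overlapped only between Natural replicate 1 and 1 IVF ovary, which was replicate 4 for Atr and replicate 3 for Prkdc. With DESeq2, the tool named in the methods, 4 members were called, all higher in IVF (Trp53bp1, Atm, Atr and Prkdc), where 5.80% of genes were called higher. These 3 kinases are named after their values were seen, beyond the rule for named genes.

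Over all 40 members at E18.5 there was no common direction. The log2 fold change was positive for 15 members and negative for 25, with a median of -0.02 against 0.00 over all genes tested. At an unadjusted p below 0.05, which 11.9% of genes passed as higher and 12.3% as lower, there were 5 members higher in IVF, the 4 above and Brca2 (0.39 ± 0.14), and 4 lower, the recombination gene Rad51c (-0.49 ± 0.19), the Fanconi gene Fancc (-0.48 ± 0.22), the Ku subunit Xrcc5 (-0.28 ± 0.12) and the single-strand break scaffold Xrcc1 (-0.35 ± 0.15). Transcript length moved with the sign. When all genes were split into 3 groups of near equal size by their longest transcript, the median log2 fold change was -0.19 in the shortest, -0.02 in the middle and 0.16 in the longest group, which starts at 4216 bases. All 15 members with a positive value were among the 22 in the longest group, and 0 of the 7 in the shortest and 0 of the 11 in the middle group were positive. The longest transcripts of Trp53bp1, Atm, Atr and Prkdc measure 9621, 9819, 8102 and 12647 bases. The part of transcript length in these differences was not tested. Marker levels differed as well: the summed level of 10 oocyte markers was 212 to 633 CPM in Natural and 129 to 328 CPM in IVF ovaries (Gdf9, Zp1 and Zp3 called lower, Oosp1 at 0 in every library), and that of 4 erythroid markers was 212 to 643 and 514 to 1570 CPM. Of the 10 meiotic prophase markers 7 of 9 tested were positive, and Sycp2, a component of the synaptonemal complex axis, was called higher (1.5 ± 0.20). The part of these cells in the repair genes' values was not tested.

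**Figure D1:**
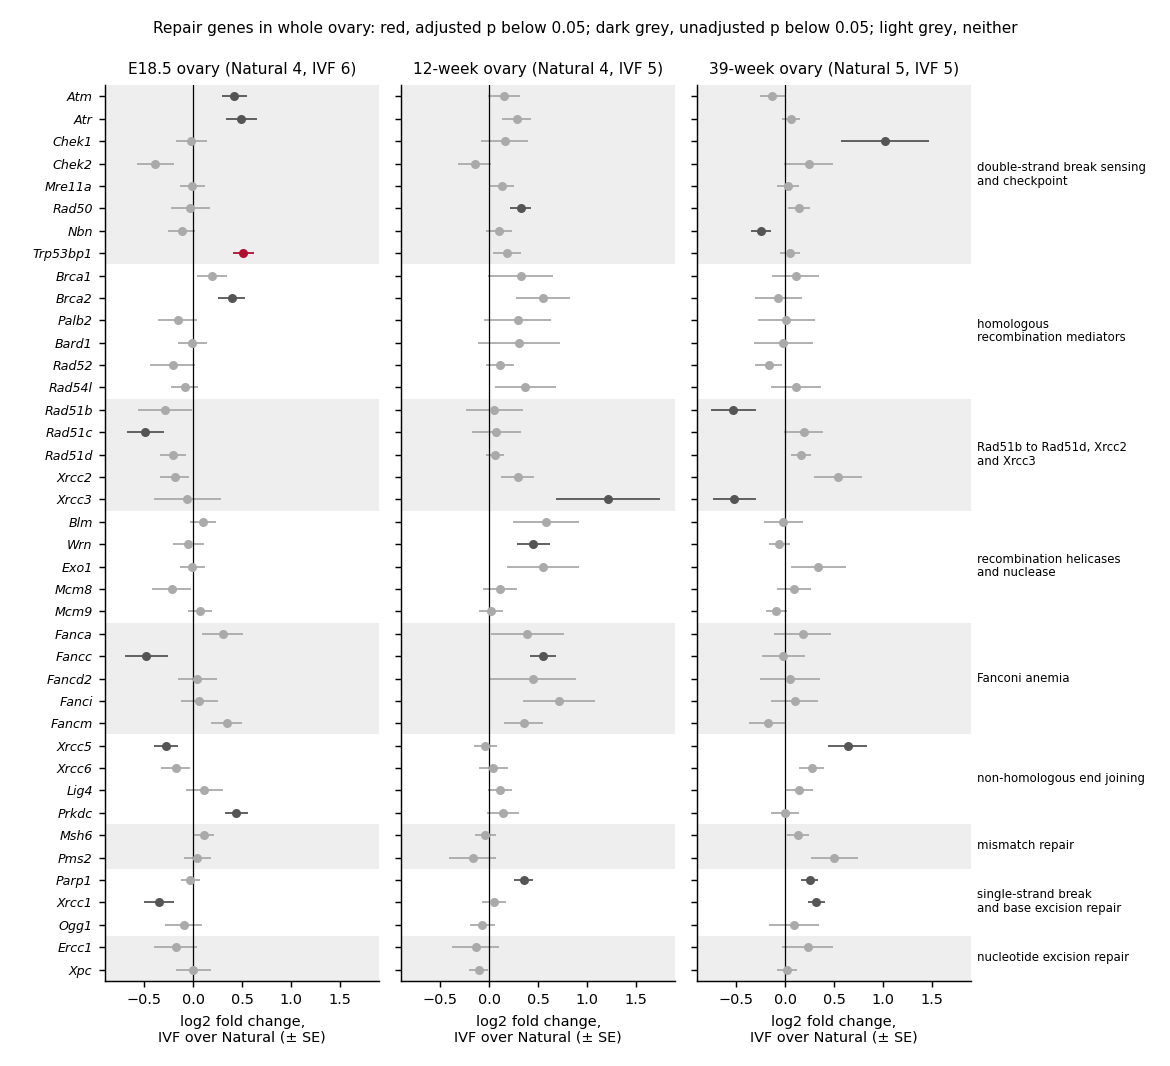
Log2 fold change of each of the 40 repair genes, IVF over Natural, with its standard error, in whole ovary, 1 panel for each of E18.5, 12 weeks and 39 weeks, grouped by role. Points right of the line are higher in IVF. Trp53bp1 at E18.5 (0.51) is the only gene past an adjusted p of 0.05, whereas at 12 weeks 33 of the 40 points lie to the right without one of them passing.

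At 12 weeks the repair genes lay mostly on the IVF side, but no member was called in the ovary by edgeR, where 0.00567% of the 17628 genes tested were. The log2 fold change was positive for 33 of the 40 members and negative for 7, with a median of 0.16 against 0.01 over all genes. At an unadjusted p below 0.05 there were 5 members, all higher in IVF, where 6.21% of genes passed in that direction. Fancc, a subunit of the Fanconi core complex, was at 15.1, 15.2, 13.4 and 16.7 CPM in the 4 Natural ovaries and at 25.1, 23.1, 19.8, 18.3 and 23.5 CPM in the 5 IVF ovaries. Every IVF ovary exceeded every Natural one, and the log2 fold change was 0.55 ± 0.13 with an adjusted p of 0.154 by edgeR. Parp1, the sensor of single-strand breaks that builds poly(ADP-ribose) chains, was at 155, 151, 139 and 148 CPM in Natural and at 185, 188, 216, 203 and 158 CPM in IVF ovaries, again without overlap (0.35 ± 0.10, adjusted p = 0.185 by edgeR). Rad50, the arm of the break-sensing complex, was at 43.7, 34.1, 40.7 and 41.6 CPM in Natural and at 48.3, 57.3, 52.9, 49.0 and 43.0 CPM in IVF ovaries, where IVF replicate 5 fell below the highest Natural ovary (0.32 ± 0.11, adjusted p = 0.238 by edgeR). Fancc and Parp1 were the only 2 of the 40 members without overlap, where 1074 of the 17628 genes had none. DESeq2 called 2 members, Fancc and Parp1, both higher in IVF, where 1.17% of genes were called higher.

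The 12-week ovaries also differed in markers of other tissue. The summed level of 7 oviduct and epithelial markers was 3540 to 7990 CPM in Natural and 93.3 to 3160 CPM in IVF ovaries, without overlap. All 10 proliferation markers had a positive log2 fold change, with a summed level of 457 to 604 CPM in Natural and 341 to 1170 CPM in IVF ovaries. The part of either in the values of the repair genes was not tested. Among the IVF ovaries, replicates 2 and 3 had the highest Brca2 (31.1 and 34.5 CPM) and Brca1 (22.2 and 25.6 CPM), while replicate 5 had 13.9 and 7.76 CPM, so that the recombination genes spread more within the IVF group than the groups differed.

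At 39 weeks no member was called by edgeR either, where 0.262% of the 17186 genes tested were called. Positive log2 fold changes were found for 28 members and negative ones for 12, with a median of 0.09 against 0.03 over all genes. The 3 members with the smallest p act on strand breaks. Xrcc1, the scaffold of single-strand break repair, was at 42.7, 48.6, 48.9, 42.0 and 41.9 CPM in the 5 Natural ovaries and at 64.1, 58.8, 53.3, 52.6 and 51.8 CPM in the 5 IVF ovaries, without overlap (0.32 ± 0.09, adjusted p = 0.111 by edgeR). Xrcc5, which encodes the larger Ku subunit, was at 9.95, 13.9, 14.6, 14.5 and 10.4 CPM in Natural and at 28.7, 19.2, 15.8, 19.8 and 15.4 CPM in IVF ovaries, also without overlap (0.64 ± 0.20, adjusted p = 0.142 by edgeR). Its highest value belonged to IVF replicate 1, the library whose oviduct and epithelial markers summed to 9220 CPM against 62.7 to 166 CPM in the other IVF ovaries and 59.2 to 241 CPM in the Natural ones. Without that library the log2 fold change of Xrcc5 was 0.47 (adjusted p = 0.140 by edgeR). Parp1 was at 139, 163, 169, 163 and 145 CPM in Natural and at 169, 206, 169, 199 and 182 CPM in IVF ovaries, which touch at 169 (0.25 ± 0.09, adjusted p = 0.196 by edgeR). The 6 theca and luteal markers summed to 16900 to 27500 CPM in Natural and 9770 to 20700 CPM in IVF ovaries, with 3 positive and 3 negative log2 fold changes. All 8 granulosa and cumulus markers were positive (825 to 1940 CPM in Natural, 1370 to 3600 CPM in IVF). Of the 10 proliferation markers 9 were positive (258 to 567 and 388 to 628 CPM). The part of these cells in the values of the repair genes was not tested. Xrcc1 and Xrcc5 were the only 2 of the 40 members without overlap, where 879 of the 17186 genes had none. DESeq2 called 2 members, Xrcc1 and Xrcc5, both higher in IVF, where 3.80% of genes were called higher.

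**Figure D2:**
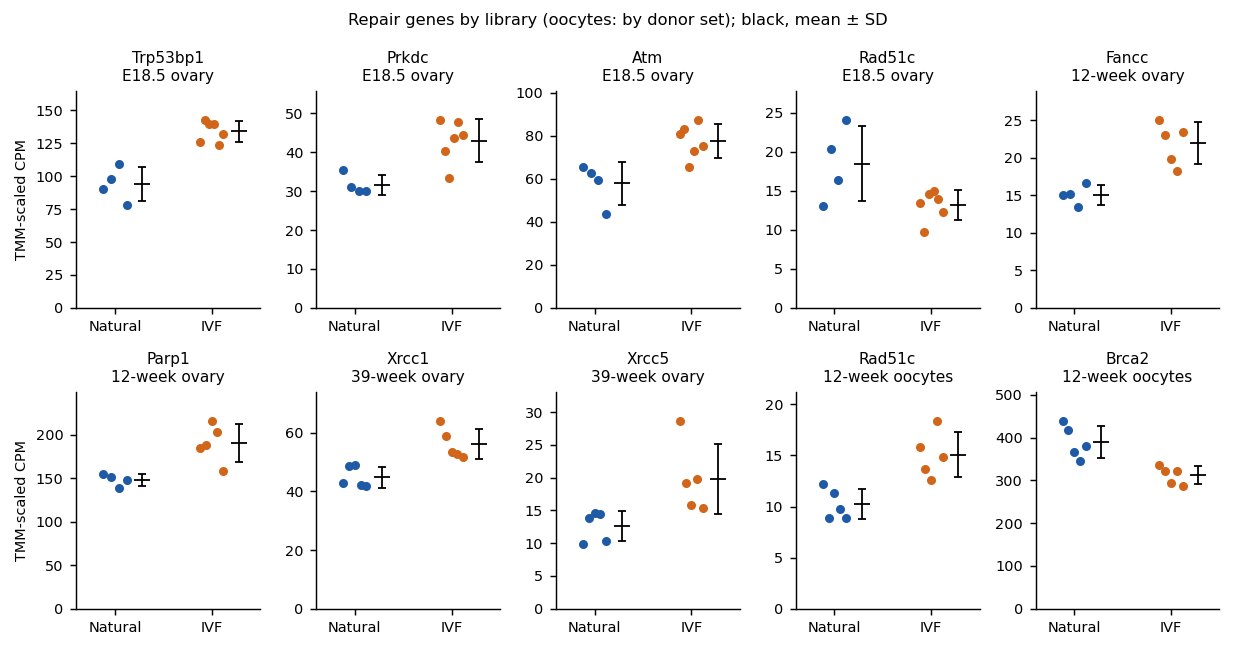
CPM of 10 gene and table pairs, 4 genes in E18.5 ovary, 2 in 12-week ovary, 2 in 39-week ovary and 2 in 12-week oocytes, with 1 point per library (1 per donor set for the oocytes), Natural in blue beside IVF in orange, the black mark and bar giving the mean ± SD, on linear axes from 0. Trp53bp1 is separated at E18.5 (78.3 to 109 CPM against 124 to 143 CPM), Fancc at 12 weeks (13.4 to 16.7 against 18.3 to 25.1) and Xrcc1 at 39 weeks (41.9 to 48.9 against 51.8 to 64.1).

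In E13.5 PGCs no member was called, and neither was any other gene (0% of 12763 tested by edgeR, with 184 genes higher and 165 lower at an unadjusted p below 0.05, and 0 called by DESeq2). Fancc had the smallest p of the members, at 25.3, 30.3, 20.0 and 22.5 CPM in Natural and at 30.7, 42.2, 38.9, 29.0 and 37.4 CPM in IVF libraries (0.54 ± 0.21, unadjusted p = 0.0271 by edgeR). The damage recognition factor of nucleotide excision repair, Xpc, was at 61.5, 47.7, 52.0 and 63.7 CPM in Natural and at 46.8, 42.2, 46.5, 50.3 and 45.0 CPM in IVF libraries, and the Fanconi core gene Fanca at 41.6, 41.0, 37.5 and 28.2 CPM in Natural and at 47.7, 48.9, 38.1, 49.4 and 44.8 CPM in IVF libraries. All 3 overlapped between groups.

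In 12-week oocytes, where 0.0277% of 14444 genes were called, no member passed, and 3 members had non-overlapping groups over the 5 and 5 donor sets, where 1.39% of genes did. Rad51c was at 12.2, 8.92, 11.3, 9.73 and 8.90 CPM in Natural and at 15.8, 13.7, 12.6, 18.4 and 14.8 CPM in IVF sets (0.56 ± 0.17, adjusted p = 0.699 by edgeR). Brca2 was at 440, 418, 366, 346 and 380 CPM in Natural and at 337, 322, 294, 322 and 286 CPM in IVF sets (-0.32 ± 0.11, adjusted p = 0.699 by edgeR). Chek2, whose product drives the removal of oocytes with unrepaired breaks in mice, was near the floor at 0.689, 0.690, 0.546, 0.682 and 0.379 CPM in Natural and at 1.57, 1.28, 2.16, 0.691 and 0.818 CPM in IVF sets (1.11 ± 0.41, adjusted p = 0.699 by edgeR). Its highest Natural and lowest IVF set were almost level, at 0.690 and 0.691 CPM. Read per oocyte, Brca2 had a median of 351 CPM over the 36 Natural oocytes (242 to 740) and 312 CPM over the 40 IVF oocytes (235 to 552), and every oocyte had a count of it. Chek2 had a count in 24 of the 36 Natural and 32 of the 40 IVF oocytes. Libraries with almost no transcript of the oocyte gene Gdf9, under 1000 CPM where the rest had at least 11100, made up 4 of the 36 Natural and 6 of the 40 IVF oocytes, and no member was called without them either.

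In 12-week cumulus cells 33 of the 40 members passed the filter on low counts, and none was called, where 0.00903% of 11080 genes were. Fancc was at 2.89, 4.29, 2.62, 4.28 and 4.74 CPM in Natural and at 3.53, 6.10, 6.14, 6.93 and 7.36 CPM in IVF libraries (0.67 by log2 fold change), resting on 10 to 45 counts a library. The helicase Blm was at 3.85, 2.15, 3.85, 2.92 and 2.89 CPM in Natural and at 2.12, 3.37, 2.73, 0.330 and 0.981 CPM in IVF libraries (-0.91), and Atm at 3.13, 4.29, 6.47, 7.38 and 5.57 CPM in Natural and at 6.00, 2.31, 1.36, 5.12 and 0.654 CPM in IVF libraries (-0.76). All overlapped. The 7 members that did not pass the filter were Bard1, Rad51b, Xrcc3, Exo1, Fanca, Fancd2 and Fanci. Natural replicate 5 carries a library name that begins like those of IVF oocytes, and leaving it out or counting it as IVF called no member.

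In 39-week oocytes the counts of 9 Natural and 10 IVF oocytes were summed, to 107931940 and 179128096 counts, and CPM here are relative to all counts of a sum. Of the 38 members with at least 1 CPM over both sums, 3 were at least 2-fold higher in IVF and 5 at least 2-fold lower, where 8.17% of the 11318 genes were higher and 17.5% lower. With a TMM factor between the sums, which moved the median log2 ratio of all genes from -0.05 to 0.17, 6 members were at least 2-fold higher and 2 lower, where 13.8% of genes were higher and 13.6% lower. There is no replicate check on these ratios. Atr was at 4.35 CPM (95% exact Poisson interval 3.97 to 4.77, which covers counting error only) in Natural and 11.3 CPM (10.8 to 11.8) in IVF, a ratio of 2.60. Per oocyte it ran from 0 to 11.0 CPM in Natural and from 3.05 to 42.6 CPM in IVF, with medians of 4.66 and 10.2. Mre11a, the nuclease of the break-sensing complex, was at 2.22 CPM (1.95 to 2.52) and 5.43 CPM (5.10 to 5.78), a ratio of 2.44, with per-oocyte medians of 2.18 and 5.64 CPM. Prkdc was at 2.24 CPM (1.97 to 2.54) and 5.18 CPM (4.85 to 5.52), a ratio of 2.31, with medians of 1.73 and 4.45 CPM. In all 3 the single oocytes of both groups overlapped, and Atr and Prkdc had no count in 2 of the 9 Natural oocytes each.

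The 5 members at least 2-fold lower in IVF were Rad52 (ratio 0.22), Xrcc3 (0.27), Xrcc6 (0.45), Fanci (0.47) and Atm (0.48). Rad52, an annealing factor of recombination, was at 10.4 CPM in Natural and 2.29 CPM in IVF sums, but the median oocyte had 3.36 and 1.94 CPM, and 1 Natural oocyte had 42.8 CPM. The same oocyte, number 9, had the highest level of the recombination gene Xrcc3 (57.7 CPM against a Natural median of 2.12) and of the Ku subunit Xrcc6 (45.6 CPM against a Natural median of 0.943). The IVF medians were 1.9 CPM for Xrcc3 and 3.32 CPM for Xrcc6, the latter above the Natural median. Natural oocytes 6 and 9 had 439 and 946 CPM of Gdf9, where the other 7 had at least 12400 and the 10 IVF oocytes at least 17100. Without these 2 oocytes, an alternative chosen after seeing the data, no member was at least 2-fold lower in IVF and 3 were higher, where 7.03% of genes were lower and 7.59% higher. The ratio of Rad52 was 0.80, and those of Xrcc3 and Xrcc6 turned to 1.56 and 2.07. The ratio of Mre11a was then 2.53, while those of Atr (1.86) and Prkdc (1.65) fell below 2. Over the 38 members 25 ratios were above 1 and 13 below with all oocytes, and 32 and 6 without the 2 oocytes, while the median log2 ratio over all genes went from -0.05 to 0.14.

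**Figure D3:**
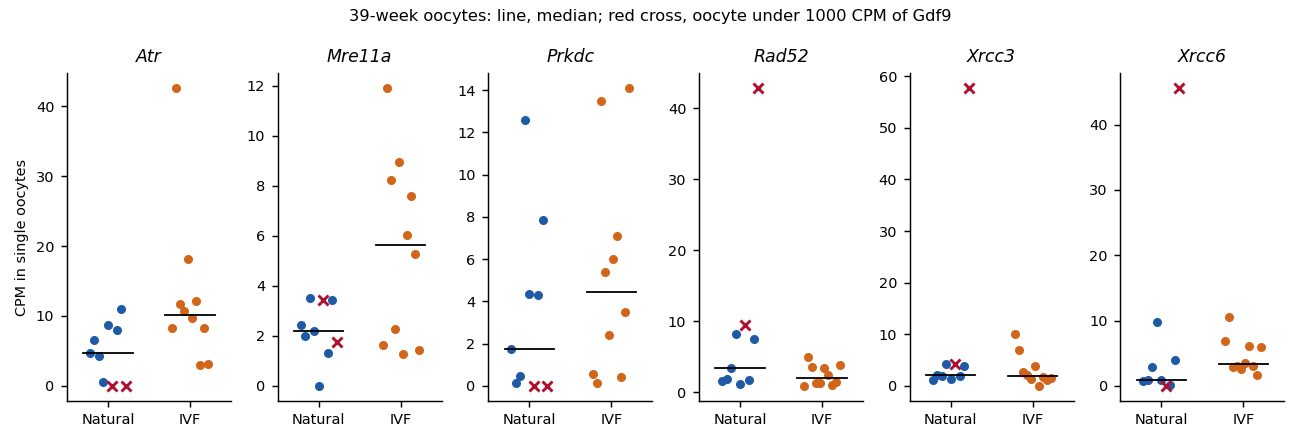
CPM of single 39-week oocytes, 9 Natural in blue and 10 IVF in orange, for 6 repair genes on linear axes, with a line at the median and red crosses for the 2 Natural oocytes under 1000 CPM of Gdf9. One of these 2, oocyte 9, is the highest point for Rad52 (42.8 CPM), Xrcc3 (57.7 CPM) and Xrcc6 (45.6 CPM). The IVF medians lie above the Natural ones for Atr, Mre11a, Prkdc and Xrcc6 and below them for Rad52 and Xrcc3.

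Brca1 and Brca2 were not called between IVF and Natural at any age or in any cell type with a test. The study measured DNA methylation at their promoters. It describes the genes it chose there as linked to ovarian insufficiency and as differing in expression among ages and sample types. The 39-week oocytes had no test here, and 39-week cumulus cells were not analysed. In the E18.5 ovary Brca1 was at 44.9, 37.5, 41.1 and 34.2 CPM in Natural and at 47.5, 42.3, 32.7, 41.6, 60.2 and 45.8 CPM in IVF females (0.19 ± 0.15, adjusted p = 0.481 by edgeR). Brca2 there was at 58.2, 61.9, 45.5 and 67.4 CPM in Natural and at 86.5, 80.4, 64.5, 62.7, 88.1 and 77.7 CPM in IVF females (0.39 ± 0.14, adjusted p = 0.107 by edgeR). At 12 weeks the log2 fold changes were 0.32 ± 0.33 for Brca1 and 0.55 ± 0.28 for Brca2, and at 39 weeks 0.11 ± 0.24 and -0.07 ± 0.24. The Natural ovaries at 12 weeks had 16.2, 9.68, 17.3 and 11.3 CPM of Brca1 and 17.3, 11.6, 16.9 and 17.2 CPM of Brca2, and at 39 weeks 7.89, 16.1, 10.4, 16.6 and 8.54 CPM of Brca1 and 11.1, 22.5, 20.3, 28.1 and 18.8 CPM of Brca2. The IVF ovaries at 39 weeks had 9.73, 13.2, 11.2, 15.0 and 15.1 CPM of Brca1 and 12.9, 20.5, 17.4, 21.8 and 23.7 CPM of Brca2. In PGCs Brca1 was even across libraries, at 130, 135, 178 and 150 CPM in Natural and 162, 138, 144, 164 and 145 CPM in IVF libraries. Brca2 in PGCs was at 202, 487, 143 and 145 CPM in Natural and 193, 355, 247, 173 and 205 CPM in IVF libraries, with 1 high library in each group. In 12-week oocytes Brca1 was at 81.7, 64.6, 75.0, 80.8 and 66.1 CPM in Natural and 76.7, 77.9, 51.7, 71.2 and 71.1 CPM in IVF sets (-0.08 ± 0.14). In cumulus cells both were low, at 2.41 to 5.60 CPM of Brca1 and 0.777 to 2.27 CPM of Brca2 in Natural and at 1.41 to 7.50 and 1.26 to 5.46 CPM in IVF libraries. In 39-week oocytes Brca2 had a per-oocyte median of 270 CPM in Natural (98.2 to 487) and 213 CPM in IVF (121 to 414), and Brca1 one of 43.7 CPM (36.8 to 69.7) and 50.3 CPM (33.3 to 108).

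Repair transcripts were mostly lower in the 12-week than in the E18.5 ovary. From E18.5 to 12 weeks, in 1 fit of the 3 ovary tables, 25 of the 40 members fell and 2 rose in Natural females, where 24.3% of 19724 genes fell and 25.3% rose. In IVF females 27 fell and 4 rose, where 28.2% fell and 30.8% rose. The median log2 fold change of the members was -0.73 in Natural and -0.58 in IVF ovaries. Age and count table go together here, so a difference between ages cannot be told apart from a difference between sequencing sets. Markers of other cells moved with age as well. The 10 meiotic prophase markers summed to 139 to 499 CPM at E18.5 and to 5.75 to 12.3 CPM at 12 weeks, and the 10 proliferation markers to 1080 to 1650 and 341 to 1170 CPM, each within its own table. The part of either in the repair genes' values was not tested.

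The 3 members with the largest fall in Natural ovaries act in crosslink repair and recombination. Fancd2, which is ubiquitinated to start crosslink repair, was at 22.3, 23.0, 19.1 and 21.6 CPM in Natural ovaries at E18.5 and at 7.08, 3.64, 6.99 and 3.73 CPM at 12 weeks (-2.0 ± 0.38). Its partner Fanci went from 17.3, 20.4, 12.7 and 16.5 CPM to 4.87, 2.79, 5.38 and 4.13 CPM (-1.96 ± 0.32). Brca2 went from 58.6, 56.8, 42.0 and 61.9 CPM to 17.2, 11.5, 17.1 and 17.1 CPM (-1.80 ± 0.26). For all 3 the ages did not overlap in Natural ovaries. They were picked for their large falls, and no share over all genes was counted for Natural ovaries alone. In IVF ovaries Atr fell most, from 98.3, 96.0, 87.6, 78.8, 101 and 102 CPM to 24.7, 33.2, 26.4, 27.9 and 32.7 CPM (-1.69 ± 0.14), followed by Brca2 (-1.62 ± 0.23) and Fancd2 (-1.57 ± 0.33). Brca2 at 12 weeks was at 16.9, 30.6, 34.4, 18.6 and 13.6 CPM in IVF ovaries, and Fancd2 at 6.56, 9.51, 12.8, 4.65 and 2.57 CPM. By role, in Natural ovaries 6 of 8 sensing and checkpoint genes, 5 of 6 homologous recombination mediators, 4 of 5 Fanconi genes, 3 of 4 end-joining genes and 3 of 5 helicases and nucleases fell, whereas of the 5 genes Rad51b, Rad51c, Rad51d, Xrcc2 and Xrcc3 only Rad51c did. Brca1 fell as well, by 1.45 in Natural and by 1.29 in IVF ovaries on the log2 scale.

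The members that rose from E18.5 to 12 weeks were few. Ogg1, the glycosylase that removes oxidized guanine, went from 8.72, 13.8, 11.8 and 12.9 CPM to 17.8, 16.0, 18.2 and 16.3 CPM in Natural ovaries (0.53 ± 0.22), and this call was lost when any of the 4 Natural 12-week ovaries was left out, and also without Natural replicate 1 or 3 of E18.5 or Natural replicate 5 of 39 weeks. Lig4 went from 12.6, 10.5, 8.28 and 10.7 CPM to 13.8, 14.5, 14.5 and 15.9 CPM (0.48 ± 0.17), and its call was lost without Natural replicate 3 at E18.5 or Natural replicate 4 at 12 weeks. In IVF ovaries Ogg1 (0.57 ± 0.19), Lig4 (0.51 ± 0.14), Fancc (0.57 ± 0.19) and Rad51d (0.44 ± 0.09) rose. Fancc went from 16.1, 12.6, 18.8, 10.5, 13.9 and 15.9 CPM to 25.0, 22.7, 19.8, 18.0 and 23.1 CPM in IVF and from 15.4, 22.1, 15.8 and 29.7 CPM to 15.0, 15.0, 13.5 and 16.6 CPM in Natural ovaries. The difference between these changes, the interaction of conception and age, was 1.04 ± 0.30 for Fancc and did not pass (adjusted p = 0.109 by edgeR). No member passed that interaction, where 0.314% of genes did. With both groups together, 14 members did not overlap between E18.5 and 12 weeks, where 23.2% of genes did not, and none between 12 and 39 weeks, where 1.20% did not.

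**Figure D4:**
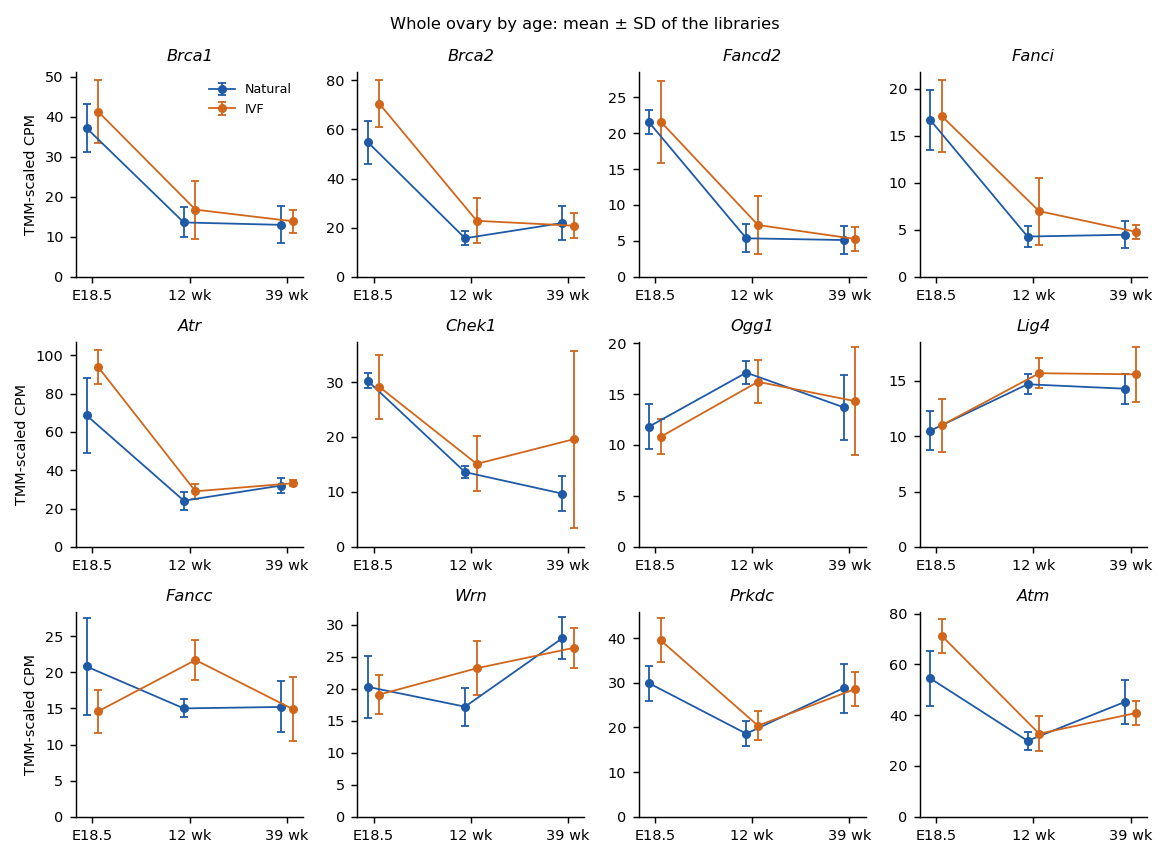
CPM of 12 repair genes in whole ovary of the 3 ages on the scale of the joint fit, Natural in blue and IVF in orange, as means with standard deviations over libraries on linear axes from 0. Brca1, Brca2, Fancd2, Fanci, Atr and Chek1 are lower at 12 weeks than at E18.5 in both groups (Natural Fancd2 21.5 to 5.36 CPM), while Lig4 and Ogg1 are higher at 12 weeks.

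From 12 to 39 weeks, 4 members rose and 3 fell in Natural ovaries, where 10.0% and 11.6% of genes did. Wrn, a RecQ helicase whose human counterpart is mutated in a premature aging syndrome, went from 18.1, 12.9, 19.7 and 18.1 CPM to 24.2, 32.5, 26.0, 29.7 and 26.8 CPM without overlap (0.70 ± 0.16). Prkdc went from 19.1, 14.5, 20.6 and 20.4 CPM to 23.7, 25.5, 25.3, 35.2 and 34.2 CPM (0.63 ± 0.15), and Atm from 28.3, 26.1, 34.3 and 30.9 CPM to 37.1, 41.9, 38.4, 57.5 and 50.9 CPM (0.60 ± 0.15), both without overlap. Atr rose by a log2 fold change of 0.41 ± 0.15. Chek2 fell from 14.7, 13.9, 17.5 and 13.1 CPM to 8.38, 11.2, 6.93, 9.65 and 7.39 CPM (-0.76 ± 0.21), again without overlap. The genes without overlap were picked for their large changes, and no share over all genes was counted for Natural ovaries alone. The mismatch repair gene Pms2 went from 21.1, 20.3, 40.1 and 23.0 CPM to 14.8, 19.6, 16.4, 16.6 and 13.2 CPM (-0.70 ± 0.22), a call lost without Natural replicate 3 of 12 weeks, the high library, or without Natural replicate 5 of 39 weeks. Xrcc5 went from 18.1, 17.9, 19.8 and 17.5 CPM to 10.9, 15.2, 15.5, 15.9 and 11.3 CPM (-0.41 ± 0.15), and 16 of the 29 single omissions lost its call. Without Natural replicate 5, the ovary with a label of 40 weeks, 4 members were called in place of 7.

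In IVF ovaries 1 member rose from 12 to 39 weeks and 0 fell, where 4.23% of genes rose and 1.96% fell. That member was Prkdc, at 18.4, 25.8, 17.4, 19.6 and 20.6 CPM at 12 weeks and at 25.6, 28.2, 25.7, 28.3 and 35.0 CPM at 39 weeks (0.48 ± 0.14). The call was lost in 7 of the 29 single omissions and in a fit of the 12- and 39-week tables alone, an alternative chosen after seeing the data. Xrcc5, which fell in Natural ovaries, was at 17.0, 21.3, 16.2, 17.3 and 16.5 CPM and then at 29.4, 20.9, 17.1, 21.7 and 16.9 CPM in IVF ovaries (0.26 ± 0.14). Its interaction with conception was 0.67 ± 0.20 and did not pass (adjusted p = 0.0664 by edgeR), and no member passed this interaction, where 2.71% of genes did. In the fit of these tables alone only 3 genes of all passed it.

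Between 12-week oocytes and E13.5 PGCs the repair genes were rearranged in both directions. In 1 fit of the low-input tables, 16 of the 40 members were higher in Natural oocytes than in Natural PGCs and 16 were lower, where 37.4% of the 15792 genes were higher and 39.4% lower. In IVF females 15 were higher and 15 lower, where 38.7% and 38.5% of genes were. These shares are close to those over all genes. The fit treats age, cell type, cell number and count table as 1 difference, since 100 PGCs stand against sums of single oocytes. Another scaling (median-of-ratios) moved the median of all genes by 0.20 in both of these contrasts and by -0.14 and -0.22 in those with cumulus cells.

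Chek1, the kinase that carries the signal of ATR, was at 69.3, 63.2, 41.9 and 46.5 CPM in Natural PGCs and at 2710, 1760, 1570, 1690 and 1640 CPM in Natural oocyte sets (5.08 ± 0.44), and at 49.4 to 67.7 CPM in IVF PGCs and 1100 to 2080 CPM in IVF oocyte sets (4.66 ± 0.39). The lowest oocyte set of either group was far above the highest PGC library. Trp53bp1 was at 33.9, 34.9, 43.3 and 38.2 CPM in Natural PGCs and at 1200, 1050, 1500, 1300 and 848 CPM in Natural oocyte sets (4.97 ± 0.37), and the fold in IVF was 5.30 ± 0.34 on the log2 scale. Lig4 was at 6.40, 10.0, 9.09 and 6.64 CPM in Natural PGCs and at 243, 161, 190, 153 and 146 CPM in Natural oocyte sets (4.46 ± 0.38), with 4.04 ± 0.34 in IVF. The other end-joining genes went the other way. Xrcc6 was at 118, 71.0, 90.8 and 87.0 CPM in Natural PGCs and at 3.74, 3.80, 8.02, 6.70 and 5.20 CPM in Natural oocyte sets (-4.07 ± 0.37), Xrcc5 had a log2 fold change of -2.54 ± 0.48 and Prkdc one of -3.21 ± 0.43.

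Parp1 was at 613, 149, 464 and 425 CPM in Natural PGCs and at 10.9, 9.93, 12.3, 16.2 and 17.5 CPM in Natural oocyte sets (-4.95 ± 0.38), the largest fall among the 40 members in Natural females. Chek2 was at 21.0, 16.3, 35.3 and 35.4 CPM in Natural PGCs and at 1.18, 1.14, 0.902, 1.16 and 0.619 CPM in Natural oocyte sets (-4.74 ± 0.35), so the checkpoint kinases lay in opposite directions. Fanca was among the 3 largest falls in IVF females, from 26.8, 26.1, 22.1, 26.9 and 26.3 CPM in PGCs to 0.535, 1.14, 1.71, 2.04 and 1.68 CPM in oocyte sets (-4.17 ± 0.57), beside Parp1 (-4.80 ± 0.38) and Xrcc6 (-4.45 ± 0.37). By role, 4 of 6 recombination mediators were higher in Natural oocytes (Brca1, Brca2, Palb2 and Bard1) and Rad54l was lower, while 3 of 4 end-joining genes were lower. Brca2 was at 105, 279, 77.7 and 75.1 CPM in Natural PGCs and at 753, 692, 605, 587 and 622 CPM in Natural oocyte sets (2.28 ± 0.35), and Brca1 had a log2 fold change of 0.63 ± 0.27. Over both groups 24 of the 40 members did not overlap between oocytes and PGCs, and nor did 57.0% of all genes. When the oocytes under 1000 CPM of Gdf9 were left out, 20 members were called higher and 14 lower in Natural oocytes, where 41.8% and 35.0% of genes were, and 19 and 12 in IVF oocytes, where 42.3% and 35.4% were.

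Against the cumulus cells of the same age, most repair transcripts were higher in the oocyte. In Natural females 34 of the 40 members were higher and 4 lower, where 41.9% of genes were higher and 37.6% lower. In IVF females 33 were higher and 2 lower, where 42.8% and 35.6% of genes were. The 7 members that were too low to pass the filter in cumulus cells could enter this fit only where they were high, so that their direction was largely given beforehand. Of the 33 others, 27 were higher and 4 lower in Natural oocytes, where 40.4% and 42.3% of the 9980 genes past the filter of both tables were, and 27 were higher and 2 lower in IVF oocytes, where 41.3% and 40.6% were. The names of 6 of the 10 cumulus libraries begin like those of oocyte sets, 5 of them within 1 group, so the cell types partly share females if these names mark the donor. In a fit of these 5 pairs alone, 2 Natural and 3 IVF, with the shared name as a block, 30 members were called in Natural and 33 in IVF oocytes. These counts join both directions, have no share over all genes beside them and rest on few pairs. They are therefore no check of the counts above. Brca2 was at 2.03, 1.48, 1.14, 0.827 and 2.32 CPM in Natural cumulus libraries and at 587 to 753 CPM in Natural oocyte sets (8.71 ± 0.45). Chek1 was at 2.48, 2.12, 6.65, 6.00 and 8.85 CPM in Natural cumulus libraries (8.48 ± 0.47). Among the 7 filtered in cumulus cells, Exo1, the exonuclease that resects break ends, had no count in 2 of them and was below 1 CPM in the other 3, against 47.9 to 89.4 CPM in Natural oocyte sets. In IVF oocytes Chek1 (8.02 ± 0.46) and Brca2 (7.54 ± 0.42) had the largest log2 fold changes of the 33. Bard1, the partner of BRCA1 and another of the 7, was at 193, 85.9, 22.3, 26.9 and 139 CPM in oocyte sets and at no more than 1.36 CPM in cumulus libraries. Of the 33, Rad51c, Rad51d and Xrcc2, the helicase genes Blm, Wrn, Mcm8 and Mcm9 and both mismatch repair genes were called higher in the oocytes of both groups.

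The members lower in the oocyte were Ercc1, Chek2, Xrcc6 and Parp1 in Natural and Ercc1 and Xrcc6 in IVF females. Ercc1, part of the endonuclease of nucleotide excision repair, was at 11.7, 12.5, 15.6 and 15.1 CPM in Natural cumulus libraries 1 to 4, highest in the fifth, and at 0.656, 0.507, 0.541, 1.35 and 0.826 CPM in Natural oocyte sets (-4.21 ± 0.37), and its log2 fold change in IVF was -3.93 ± 0.36. Chek2 was at 4.51, 3.39, 4.56, 2.48 and 3.16 CPM in Natural cumulus libraries (-1.84 ± 0.33), and Xrcc6 at 9.46, 6.36, 14.3, 22.1 and 20.6 CPM (-1.42 ± 0.33). With the shared names as a block, the calls of Chek2 (-1.67, adjusted p = 0.205 by edgeR) in Natural and of Xrcc6 (-0.69, adjusted p = 0.296 by edgeR) in IVF females were lost. Over both groups 31 members did not overlap between oocytes and cumulus cells, and nor did 58.3% of all genes. Without the oocytes low in Gdf9 the counts were again 34 and 4 in Natural, where 42.5% and 37.9% of genes were called, and 33 and 2 in IVF oocytes, where 42.6% and 37.2% were. Both sets of counts are over all members. They take in those filtered in cumulus cells, whose direction was largely given beforehand.

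**Figure D5:**
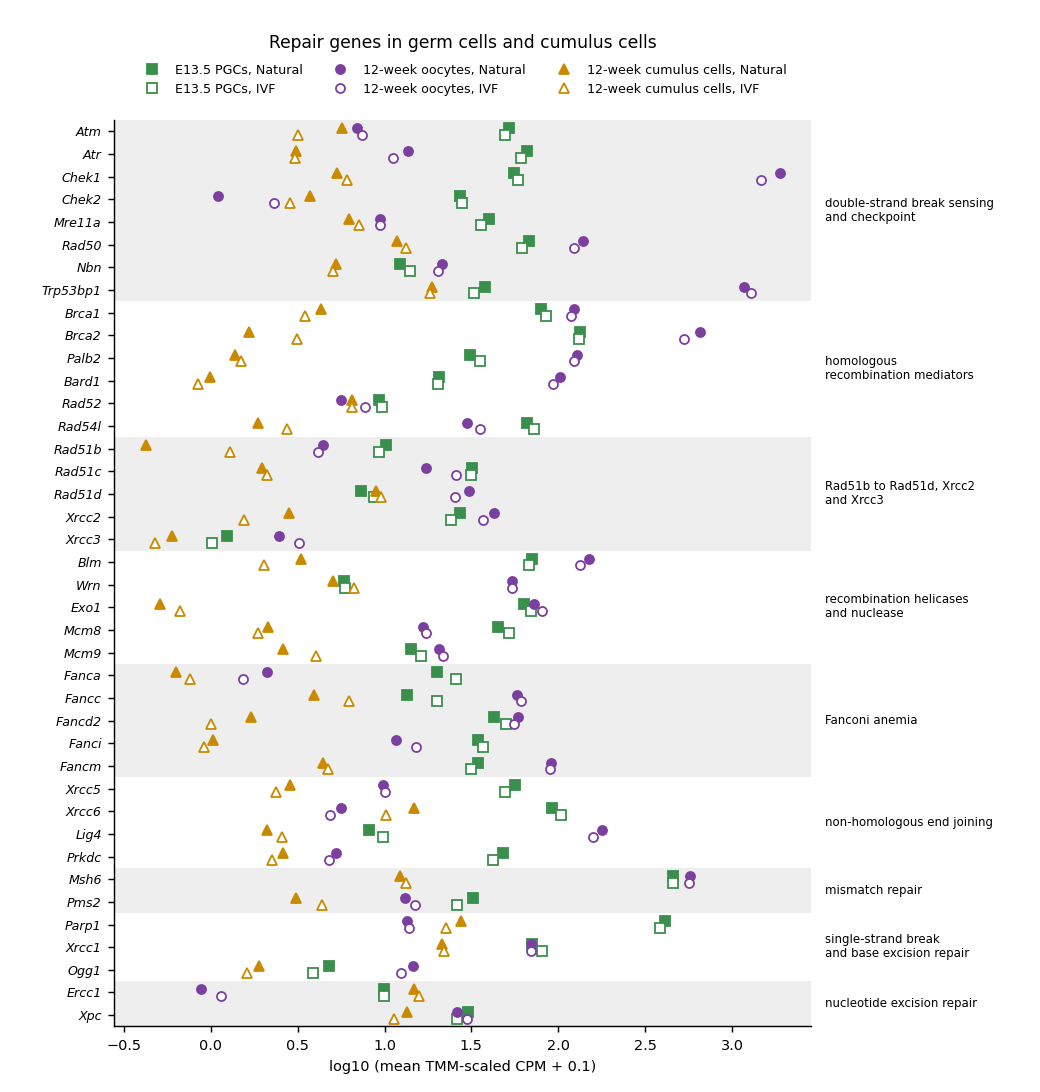
Mean CPM of the 40 repair genes in E13.5 PGCs (squares), 12-week oocyte donor sets (circles) and 12-week cumulus libraries (triangles) on the scale of the joint fit, plotted as log10 of the mean CPM plus 0.1, filled for Natural and open for IVF, grouped by role. Chek1, Trp53bp1 and Brca2 are far to the right in oocytes (Natural means 1880, 1180 and 652 CPM), while Parp1 and Xrcc6 are highest in PGCs (413 and 91.7 CPM) and Ercc1 is lowest in oocytes (0.776 CPM).

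Levels of different genes were compared per kilobase of their longest transcript. In Natural 12-week oocytes Chek1 led the 40 members with 494 CPM per kilobase, above 99.2% of the expressed genes, followed by the mismatch sensor Msh6 (135), Trp53bp1 (123), Brca2 (60.8), Lig4 (35.5) and Palb2 (34.2). At the low end were Prkdc (0.408), Chek2 (0.439), Fanca (0.448), Ercc1 (0.564), Atm (0.700) and Xrcc3 (0.973). In IVF oocytes Chek1 (391), Msh6 (134) and Trp53bp1 (133) led as well. In whole ovary Parp1 led at each age and in both groups, with 63.3 CPM per kilobase in Natural E18.5 ovaries and 38.2 and 43.7 in those of 12 and 39 weeks, and in PGCs Msh6 led, with 107 CPM per kilobase in Natural and 108 in IVF libraries. In cumulus cells Ercc1 led, with 10.7 in Natural and 11.4 in IVF libraries.

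A further 98 genes of the same pathways, in 8 lists, were read from the same fits. In the E18.5 ovary 3 of the 98 were called between IVF and Natural, where 5.43% of all genes tested were. Ercc6 of transcription-coupled repair (0.49 ± 0.10) and the translesion polymerase Rev1 (0.63 ± 0.13) were higher in IVF, and Rpa1, which coats single-stranded DNA (-0.44 ± 0.09), was lower. None of the 98 was called in the other 5 comparisons of IVF with Natural, in which 78 to 98 of them were tested. In the 12-week ovary 71 of the 98 had a positive and 27 a negative log2 fold change, with a median of 0.08. From E18.5 to 12 weeks 44 fell and 13 rose in Natural ovaries, where 24.3% of all genes fell and 25.3% rose. In IVF ovaries 37 fell and 18 rose, where 28.2% of all genes fell and 30.8% rose. Of the 21 other recombination and Fanconi genes 16 fell in Natural and 14 in IVF ovaries, and 0 rose. Of the 18 genes of the p53 list 7 were higher and 3 lower at 12 weeks in Natural ovaries, where 25.3% and 24.3% of all genes were. Against cumulus cells, 57 of the 97 genes tested were higher and 24 lower in Natural oocytes, where 41.9% of all genes were higher and 37.6% lower. Among them, 15 of the 21 recombination and Fanconi genes were higher and 0 lower. Genes of these lists too low to pass the filter in cumulus cells could likewise enter only where they were high. Of the 18 p53 genes 10 were lower and 4 higher, and the difference between the lists was not tested.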

How the data were processed

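RNA-seq was measured in whole ovaries (KAPA mRNA libraries) and in PGCs, single oocytes and cumulus cells (modified SMART-seq with Nextera libraries). The authors deposited raw counts per gene in 7 tables of 35976 gene names each. The submitters' processing notes name Trimmomatic 0.32, STAR 2.3.0e, featureCounts 1.5.0, DESeq2 and the mm10 build. Whether the counting used strand is not given in the sources used here. Between 56.5% and 73.2% of the non-zero counts of a table were even, so a count may be 1 of 2 mates and counting intervals are then too narrow. No libraries were identical.

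The 40 members and all gene lists were chosen with earlier results of these data known. Counts were fitted per table with edgeR 4.0.16 (TMM, filterByExpr, quasi-likelihood test, Benjamini-Hochberg adjustment over all genes tested, threshold 0.05) in R 4.3.3. The ovary ages and the low-input cell types were fitted in 1 model each, with conception and age or cell type combined into groups. The 12-week cumulus fit had the library set, from the library names, as a covariate. The 39-week cumulus samples (4) and 4 records that repeat the names of 12-week cumulus libraries were not analysed here. Alternatives were DESeq2 1.42.0, median-of-ratios size factors, no filter, at least 10 counts in every library, a replicate block and each library left out. In 39-week oocytes counts were summed per group, with exact Poisson intervals at a confidence level of 0.95, a minimum of 1 CPM and a 2-fold rule. Genes named with values in every library were those called (at most 6) or else the 3 with the smallest p, the 3 largest changes in either direction of each age or cell type contrast and of the 39-week oocytes, and Brca1 and Brca2 throughout. Each fit was tested on simulated data with planted log2 fold changes of 2. The IVF differences of the named repair genes in these fits were smaller, and recovery at their size was not examined. Transcript lengths came from GENCODE vM21 and promoters from RefSeq. The values of 1 further gene are not reported here.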

Additional observations from a re-analysis of the deposited data

Results flagged for a closer look

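Of 135 groups of named repair genes, each of 4 to 10 libraries, donor sets or oocytes, 13 held 1 value far from the others by Dixon's 95% criterion, where chance gives about 1 in 20, or 6.75. In the 12-week ovary these were Brca2 in Natural replicate 2 (11.6 CPM, low, with 16.9 to 17.3 CPM in the other 3) and Pms2 in Natural replicate 3 (40.1 CPM, high), whose omission ended the Pms2 call between 12 and 39 weeks. In the 39-week ovary Prkdc was high in IVF replicate 5 (35.0 CPM). In PGCs Brca2 was high in Natural replicate 2 (487 CPM, with 143 to 202 CPM in the other 3). In 12-week oocytes Chek1 was high in Natural donor set 1 (2710 CPM on the scale of the joint fit) and Brca1 low in IVF donor set 3 (51.7 CPM).

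The other 7 were single 39-week oocytes. Natural oocyte 9, with 946 CPM of Gdf9, was high for Rad52 (42.8 CPM), Xrcc3 (57.7 CPM) and Xrcc6 (45.6 CPM), and Natural oocyte 6, with 439 CPM of Gdf9, for Brca2 (487 CPM). IVF oocyte 2 was high for Atr (42.6 CPM), Brca1 (108 CPM) and Brca2 (414 CPM). In the other Natural oocytes Rad52 was at 1.09 to 9.45 CPM, Xrcc3 at 1.13 to 4.19 CPM and Xrcc6 at 0 to 9.73 CPM. In IVF oocytes these genes were at 0.879 to 5.01, 0 to 10.1 and 1.64 to 10.5 CPM. For Atr, Brca1 and Brca2 the ranges of both groups are given with the report of each gene.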

How the results depend on the processing

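Of the alternatives that do not leave out a library, the count of called members moved past 1.5 times in these cases. With DESeq2, comparing IVF with Natural ovaries gave 4 in E18.5, 2 in 12-week and 2 in 39-week tissue. It gave 2 from 12 to 39 weeks in IVF ovaries, and 2 and 1 in the interactions of conception with age (39 against 12 weeks, and 12 weeks against E18.5). In IVF ovaries from 12 to 39 weeks no filter gave 0 and the 2 tables alone gave 0. At least 10 counts in every library left 10 members to test in the low-input fit, of which 7 and 7 (oocytes against PGCs, Natural and IVF) and 10 and 10 (against cumulus cells) were called. These low-input counts join both directions and have no share over all genes beside them. In 39-week oocytes the 8 members past 2-fold became 4 with oocytes weighted equally, 5 with at least 5 CPM and 3 without the oocytes low in Gdf9. A TMM factor between the sums left 8 but turned 3 higher and 5 lower into 6 and 2. Leaving out the oocytes low in Gdf9 turned the ratios of Xrcc3 to 1.56 and of Xrcc6 to 2.07. Small values changed sign for Brca2 in PGCs (0.13 with a replicate block) and Brca1 in 12-week oocytes (0.01 without the oocytes low in Gdf9). The cause was not tested except where fewer libraries or genes were used.

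Replicate numbers are shared between groups, and the labels do not say that they pair the samples. Same-numbered libraries did not deviate together in every pair of any table (correlations from -0.43 to 0.59). Natural libraries went best with the IVF library of their own number in 3 of 4 PGC pairs and 3 of 5 39-week ovary pairs. Shared numbers may therefore mark pairs in these 2 tables. The replicate block took the called members at E18.5 from 1 to 0 and the called genes from 891 to 3, and changed no other count of members. In all genes it gave 24 in place of 45 in the 39-week ovary and 26 in place of 1 in cumulus cells. The oocyte donor sets of Natural and IVF females share no library names.

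Leaving out 1 library at a time gave 0 to 6 called members at E18.5 (6 without Natural replicate 1, 3 without IVF replicate 3, 0 without Natural replicate 2 or 4), 4 to 9 from 12 to 39 weeks in Natural and 0 to 2 in IVF ovaries, and 0 to 2 in the interaction of conception with 39 against 12 weeks. It gave 0 in the other comparisons of IVF with Natural and in the interaction with 12 weeks against E18.5, 24 to 28 and 28 to 32 from E18.5 to 12 weeks in Natural and IVF ovaries, 29 to 32 and 28 to 32 in oocytes against PGCs, and 36 to 38 and 34 to 36 against cumulus cells. The counts against cumulus cells take in members filtered there, whose direction was largely given beforehand. None of these counts has a share over all genes beside it. Log2 fold changes near 0 changed sign for Brca1 and Brca2 in the 39-week ovary (-0.01 to 0.26 and -0.22 to 0.08), in PGCs (-0.03 to 0.13 and -0.25 to 0.53) and for Brca1 in 12-week oocytes (-0.13 to 0.00).

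Over all genes, DESeq2 called 1924 in E18.5 (edgeR 891), 660 in 12-week (1) and 1240 in 39-week (45) ovaries, 46 in 12-week oocytes (4), 25 in cumulus cells (1), 2017 from 12 to 39 weeks in IVF ovaries (1220), and 1537 (534) and 347 (62) in the interactions, which gave 3 and 1 in fits of the 2 tables alone. No filter gave 104 in cumulus cells, 19 in 12-week oocytes, 28 in the 39-week and 9 in the 12-week ovary, 759 from 12 to 39 weeks in IVF ovaries and 16 in the interaction of conception with 12 weeks against E18.5, where at least 10 counts in every library gave 12 and median-of-ratios size factors 29. At least 10 counts gave 96 in the 39-week ovary and 4981 to 5231 in the low-input contrasts (edgeR 12124 to 12555). Depth was lowest in single 12-week oocytes (from 839781 counts, with 25 and 27 members counted in every Natural and IVF oocyte), in cumulus cells, where 7 members were filtered out, and in IVF replicate 4 of the 12-week ovary (2839022 counts).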
